A study of Mus musculus with 56 samples.

Results

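Lipoprotein particles carry triglyceride and cholesterol out of the liver, and 10 genes of their assembly, coating and remodelling were followed here through the loss of miR-122 in mouse liver. The members were taken by gene symbol, as Mttp, Apob, Apoa1, Apoa2, Apoa4, Apoa5, Apoc3, Apoe, Lipc and Abca1. They are 10 of the 21888 gene symbols of the RNA-seq table, each has 1 row there, and all 10 passed the filter for testing among 11354 genes. No other row of the table overlaps the locus of a member.

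The RNA-seq covers 14 livers of 129Sv/J mice, 1 library per mouse. Of these, 11 come from adult mice with loxP sites around pre-miR-122. Among them, 3 mice (A, B and C) were not injected and are called day 0, and the others received an rAAV that expresses Cre and were taken at day 21 (3 mice), day 45 (3 mice), day 100 (1 mouse) and day 200 (1 mouse). The last 3 livers (A, B and C) are from germline miR-122 knockout mice. Cre was driven by the Ef1a promoter, which is active in many cell types, so the promoter did not restrict excision to hepatocytes. The day 0 mice received no vector, the labels give none for the knockout mice, and the knockout is a separate line, so exposure to vector and loss of miR-122, and likewise colony and genotype, cannot be told apart. The exact ages and the sex of the mice are not given in the sources used here.

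miR-122 is the most abundant microRNA of the hepatocyte, and its loss lowers plasma lipids in mice and primates. The liver builds VLDL by loading triglyceride onto apolipoprotein B through the microsomal triglyceride transfer protein, Mttp. It also secretes the apolipoproteins of HDL, which Abca1 loads with cholesterol, and hepatic lipase, Lipc, which remodels HDL and remnants at the sinusoid. A microRNA acts through its seed, bases 2 to 8, which pairs with matching sites in the 3′ UTR of a messenger RNA.

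In small RNA libraries of the floxed mice at the same days, miR-122 made up 73.3%, 59.2% and 66.7% of listed microRNA reads at day 0 and 12.5%, 13.2% and 8.22% at day 21. At day 45 it made up 0.908%, 0.383% and 1.23%, and in the single livers of day 100 and day 200 4.46% and 19.1%. The share was lowest at day 45 and higher again at day 200. Whether these livers are the ones used for RNA-seq is not stated, and small RNA of the germline knockout mice was not analysed here.

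The knockout livers do not form 1 group. Livers A and B resembled each other (Pearson r = 0.986 over tested genes) and stood apart from C. Their levels moved with transcript length. For genes whose longest transcript has 8000 bases or more, the median log2 difference from the day 0 mean was −0.74 in knockout A, −0.44 in knockout B and 0.08 in knockout C. For transcripts under 1000 bases it was 0.62, 0.40 and −0.13. A pattern of the same form and smaller size was present in day 0 liver A (−0.22 and 0.23). The 129 tested genes that the study lists as predicted miR-122 targets lay above the other genes by a median log2 difference of 0.25 to 0.46 in the 8 livers after rAAV-Cre and by 0.37 in knockout C. In knockout A and B this difference was −0.17 and 0.06. The row of the miR-122 gene is at 0 in all 14 libraries and checks no label. The knockout changes of the members and the knockout calls among the other named genes are therefore given for all 3 livers and for C alone. Wherever C stands alone it is 1 liver: its interval and p take their spread from the other groups, on the assumption that C varies as they do, and do not measure variation among knockout mice. FPKM hold no fragment counts, so the depth behind each value is unknown.

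**Figure D1:**
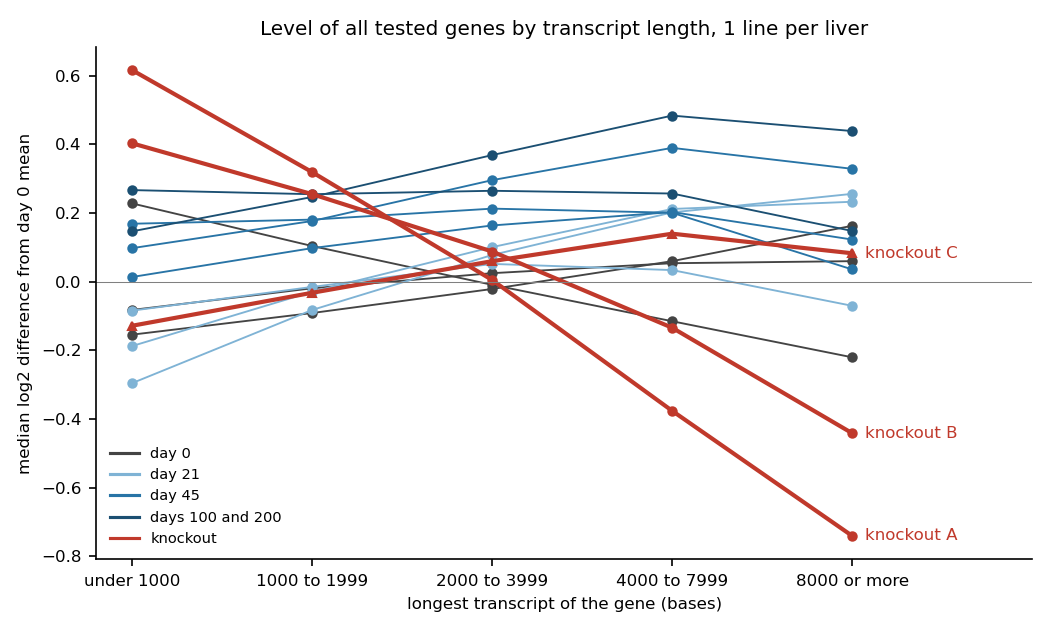
Median log2 difference of all tested genes from the day 0 mean (vertical axis, log2 of FPKM + 1) in 5 classes of longest transcript length in bases (horizontal axis), with 1 line per liver coloured by group. Knockout A and B fall from 0.62 and 0.40 in the shortest class to −0.74 and −0.44 in the longest, while knockout C (triangles) stays between −0.13 and 0.14.

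At day 0 the members spanned a wide range of levels per length. Mean FPKM (± SD, n = 3) was 17353 ± 3441 for Apoa2, 13329 ± 2146 for Apoe and 12214 ± 1119 for Apoa1. Apoc3 followed at 5555 ± 1707 FPKM. Apoa5 stood at 664 ± 128 FPKM and Apob at 632 ± 146 FPKM. Lipc stood at 207 ± 61.0, Apoa4 at 150.1 ± 77.7, Mttp at 114 ± 19.7 and Abca1 at 27.0 ± 6.10 FPKM. In this order the ranges over mice of Apoa2 and Apoe, of Apoe and Apoa1, of Apoa5 and Apob, of Lipc and Apoa4, and of Apoa4 and Mttp overlapped, and the other neighbours did not. Together the members held 8.28% to 10.6% of summed FPKM at day 0, 6.48% to 7.42% at day 21, 6.78% to 7.45% at day 45, 5.38% at day 100, 7.39% at day 200 and 7.53% to 9.38% in the knockout.

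**Figure D2:**
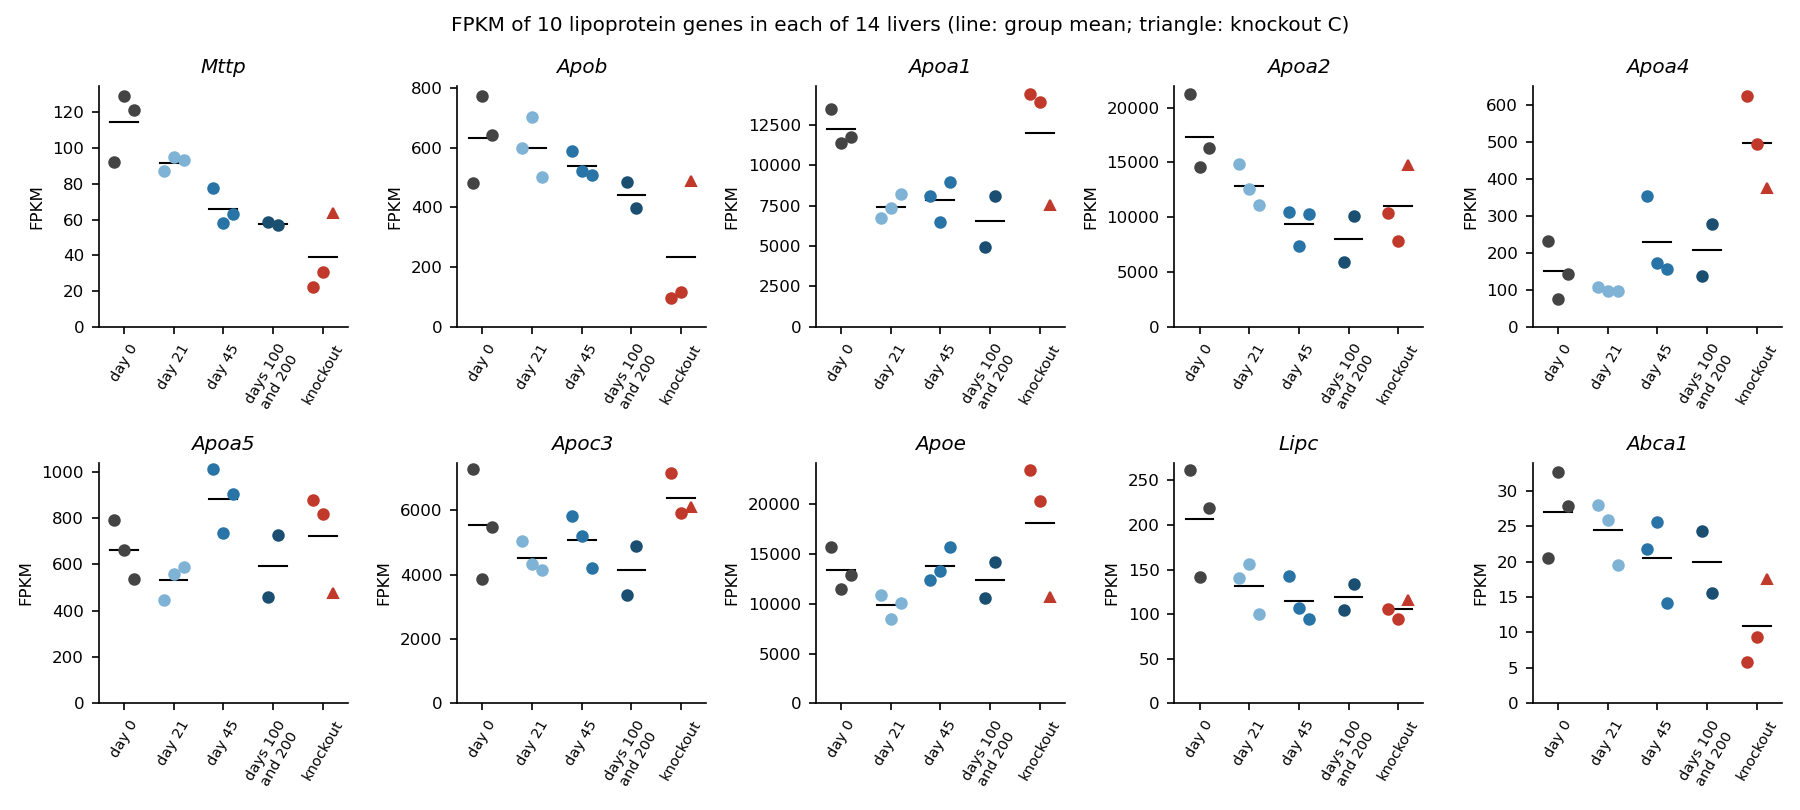
FPKM (vertical axes, linear from 0) of each member in each of the 14 livers by group (horizontal axes), with a line at the group mean and a triangle for knockout C. Mttp falls from a mean of 114 FPKM at day 0 to 57.8 FPKM at days 100 and 200, and for Mttp, Apob, Apoa1, Apoa2, Apoa5, Apoe and Abca1 the triangle lies on the other side of the knockout mean from the circles.

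Mttp, the transfer protein that lipidates apolipoprotein B in the endoplasmic reticulum and is required for VLDL secretion, fell at days 100 and 200 and in the knockout. It was measured at 92.2, 129 and 122 FPKM in the day 0 livers and at 87.1, 94.8 and 93.6 FPKM at day 21. It stood at 77.5, 58.0 and 63.0 FPKM at day 45, 58.6 FPKM at day 100 and 57.0 FPKM at day 200. All 5 livers from day 45 on lay below all 3 day 0 livers. In the knockout it was 22.5 and 30.5 FPKM in A and B and 63.9 FPKM in C, so that C lay within the day 45 range and A and B below it. The log2 fold change from day 0 was −0.30 ± 0.29 (SE) at day 21 and −0.78 ± 0.29 at day 45, neither past the threshold (limma adjusted p = 0.629 and 0.0688). At days 100 and 200 Mttp fell by 0.96 ± 0.33 on the log2 scale (limma adjusted p = 0.0409). This call was lost without day 0 liver B or C, the day 100 liver or the day 200 liver (−0.98 to −0.86), with only genes averaging at least 5 FPKM (limma adjusted p = 0.0551) and with libraries rescaled to a common sum (limma adjusted p = 0.0761). In the knockout it fell by 1.65 ± 0.29 on the log2 scale (limma adjusted p = 0.00209), a 3.14-fold lower level. Knockout C alone gave −0.81 (limma adjusted p = 0.0521) and A and B alone gave −2.07.

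The locus of Mttp is at chr3:137752818-137806352 in mm9. Its longest annotated transcript (GENCODE vM1) has 4272 bases. The study lists Mttp among predicted targets of miR-30, and the other 9 members are on none of its 6 target lists, that of miR-122 included. Of the mature miR-30 family, 3 members that share the seed in capitals are shown, and below them the 29 bases around its match in the 3′ UTR of Mttp, with the 7 matching bases in capitals. The microRNA sequences are from RefSeq (GRCm38.p6). Those of miR-30a-5p, miR-30c-5p, miR-30e-5p and miR-33-5p were taken, and those of miR-30b-5p and miR-30d-5p were not looked up. The site begins at base 71 of a 3′ UTR of 1200 bases. The 29 bases shown lie on the minus strand at chr3:137753931-137753959 in mm9.
miR-30a-5p: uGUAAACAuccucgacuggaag
miR-30c-5p: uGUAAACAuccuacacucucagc
miR-30e-5p: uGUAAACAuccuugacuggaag
Mttp site: tgagagcacagTGTTTACatatttacctg
The letters TGTTTAC stand in the annotated 3′ UTR of 14.5% of 11005 tested genes and of 1 of the 10 members. A match is a description of the letters and not a measured site. The miR-30a row of the small RNA table (arms are not resolved there) stood at 10130, 9627 and 11321 RPM at day 0, where RPM were rescaled to the microRNA reads other than miR-122. It stood at 12725, 23246 and 13696 RPM at day 21 and at 9034, 5948 and 13036 RPM at day 45. The day 100 liver gave 8992 RPM and the day 200 liver 15403 RPM. The day 45 range of miR-30a spanned the day 0 range. The rows of the family differed in this. That of miR-30b ran from 1401 to 9817 RPM at day 0 and from 1967 to 4618 RPM at day 45, inside the day 0 range, and that of miR-30e from 3774 to 5065 RPM at day 0 and from 2138 to 4870 RPM at day 45, reaching below it. At day 21 the rows of miR-30a and miR-30e (5628 to 8684 RPM) lay above every day 0 library. That of miR-30b (1954 to 21542 RPM) overlapped day 0. No test was run on these values.

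Apob encodes the structural protein of VLDL and LDL and has the longest transcript of the members, 13934 bases (chr12:7984482-8023645, mm9). It was measured at 481, 773 and 644 FPKM at day 0, 598, 702 and 502 FPKM at day 21, 588, 522 and 508 FPKM at day 45, 486 FPKM at day 100 and 399 FPKM at day 200. The ranges at day 0, day 21 and day 45 overlapped. The day 100 liver lay inside the day 0 range and below every liver of day 21 and day 45, and the day 200 liver was the lowest of the floxed livers. In the knockout, A and B stood at 98.2 and 117 FPKM and C at 488 FPKM, within the day 0 range. No change from day 0 passed the threshold after rAAV-Cre, with a log2 fold change at day 45 of −0.21 (95% confidence interval −1.20 to 0.78). In the knockout Apob stood 3.47-fold lower than at day 0, a log2 fold change of −1.80 ± 0.46 (limma adjusted p = 0.012). Knockout C alone gave −0.35 (95% interval −0.97 to 0.27, limma adjusted p = 0.502), and A and B alone gave −2.52. The call was also lost without A (−1.37) or B (−1.50) and in the fit of only the groups compared (limma adjusted p = 0.0953). In knockout A and B, Apob differed from the median of the 414 tested genes with transcripts of 8000 bases or more by log2 −1.91 and −1.95, and in C by −0.43. With each library's trend over transcript length removed, the knockout change of Apob was −1.35 (limma adjusted p = 0.00657).

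Apoa1 and Apoa2 are the main proteins of HDL, and both fell at days 100 and 200. Apoa1 (chr9:46036712-46038549, mm9) was measured at 13489, 11396 and 11756 FPKM at day 0 and at 6737, 7331 and 8212 FPKM at day 21. It stood at 8076, 6492 and 8982 FPKM at day 45, 4942 FPKM at day 100 and 8122 FPKM at day 200. All 8 livers after rAAV-Cre lay below all 3 day 0 livers. The log2 fold change was −0.72 ± 0.28 at day 21 and −0.65 ± 0.28 at day 45 (limma adjusted p = 0.149 and 0.11), and at days 100 and 200 Apoa1 fell by 0.94 ± 0.31 on the log2 scale (limma adjusted p = 0.0357). This call was lost without any 1 of the day 0 livers (−0.99 to −0.87) and without the day 100 liver, where the value was −0.58. It was also lost without a filter on low values (limma adjusted p = 0.274) and in the fit of only the groups compared (limma adjusted p = 0.0863). In the knockout Apoa1 stood at 14424 and 13925 FPKM in A and B, above the day 0 livers, and at 7539 FPKM in C, below them. The knockout fold change of −0.09 on the log2 scale (95% interval −0.69 to 0.52) thus averages livers on both sides of day 0. A and B alone gave 0.22 (limma adjusted p = 0.46) and C alone −0.69 (limma adjusted p = 0.252).

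Apoa2 (chr1:173155184-173156510, mm9) has the shortest transcript of the members, 518 bases. It was measured at 21203, 14577 and 16278 FPKM at day 0, 14820, 12576 and 11118 FPKM at day 21, and 10506, 7366 and 10328 FPKM at day 45. It stood at 5876 FPKM at day 100 and 10123 FPKM at day 200, so that all 5 livers from day 45 on lay below day 0. Apoa2 fell by 0.88 ± 0.29 on the log2 scale at day 45 (limma adjusted p = 0.0411) and by 1.15 ± 0.33 at days 100 and 200 (limma adjusted p = 0.0176). The day 45 call was lost when any 1 of the 6 mice compared was left out (−1.001 to −0.718), without a filter on low values (limma adjusted p = 0.349) and with length-corrected libraries (limma adjusted p = 0.0784). The later one was lost without day 0 liver A (−0.998) or the day 100 liver (−0.76), without a filter (limma adjusted p = 0.238) and in the fit of only the groups compared (limma adjusted p = 0.0685). In the knockout it stood at 10355, 7872 and 14765 FPKM, a log2 fold change of −0.69 ± 0.29 (limma adjusted p = 0.0833). A and B alone gave −0.92, which passed (limma adjusted p = 0.0175), and C alone gave −0.21 (limma adjusted p = 0.801).

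Apoa1, Apoc3, Apoa4 and Apoa5 lie within 1 gene cluster on chromosome 9, between 46036712 and 46080002 in mm9, and their values in the knockout differed. Apoa4, which coats chylomicrons and VLDL and is strongly made in the intestine (chr9:46048926-46051541), was the 1 member that rose. It was measured at 231, 76.3 and 143 FPKM at day 0, 108, 96.5 and 96.3 FPKM at day 21, 355, 174 and 156 FPKM at day 45, 138 FPKM at day 100 and 278 FPKM at day 200. In the knockout it reached 623, 494 and 374 FPKM, all 3 above every other liver. Apoa4 rose in the knockout by 1.83 ± 0.41 on the log2 scale (limma adjusted p = 0.0068). Knockout C alone gave 1.45 (limma adjusted p = 0.182) and A and B alone gave 2.02. At day 45 the log2 fold change was 0.64 (95% interval −0.25 to 1.53), so a change was not detectable there. Of 5 markers of the small intestine epithelium, 2 were tested, and in the knockout 1 rose and 1 fell. Fabp2, a fatty acid binding protein, stood at 280.1, 176 and 128 FPKM at day 0 and fell to 28.5, 19.0 and 41.2 FPKM in the knockout. Vil1, villin of the brush border, which bile duct cells also carry, stood at 0.352, 0.156 and 0.211 FPKM at day 0 and rose to 25.8, 34.4 and 16.7 FPKM. Their part in the level of Apoa4 was not tested.

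Apoa5, a minor apolipoprotein that promotes lipolysis (chr9:46076690-46080002), was measured at 793, 663 and 536 FPKM at day 0 and 445, 560.4 and 590.2 FPKM at day 21. It stood at 1012, 736 and 903 FPKM at day 45, 459 FPKM at day 100, 726 FPKM at day 200, and 877, 816 and 475 FPKM in the knockout. The knockout log2 fold change was 0.09 over all 3 livers (limma adjusted p = 0.808), 0.37 in A and B alone (limma adjusted p = 0.198) and −0.46 in C alone (limma adjusted p = 0.42). Day 45 lay above day 21 in all mice, with a log2 difference of 0.73 ± 0.27 that did not pass (limma adjusted p = 0.211). Apoc3, an inhibitor of lipolysis and remnant uptake (chr9:46041133-46043380), was measured at 7293, 3881 and 5491 FPKM at day 0, 5054, 4343 and 4148 FPKM at day 21, 5837, 5208 and 4203 FPKM at day 45, 3384 FPKM at day 100, 4893 FPKM at day 200, and 7161, 5909 and 6103 FPKM in the knockout. Its range at day 0 held every value at day 21, day 45, day 200 and in the knockout. Its log2 fold change from day 0 was −0.09 at day 45 (95% interval −0.64 to 0.45) and 0.24 in the knockout (−0.30 to 0.79), with 0.27 in A and B alone and 0.18 in C alone.

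Apoe, the ligand through which remnant particles are taken up by liver receptors (chr7:20281592-20284515), was measured at 15656, 11427 and 12903 FPKM at day 0, 10898, 8470 and 10094 FPKM at day 21, and 12360, 13228 and 15715 FPKM at day 45. It stood at 10567 FPKM at day 100 and 14176 FPKM at day 200. In the knockout A and B reached 23406 and 20294 FPKM and C 10627 FPKM, so the group lay on both sides of day 0. No comparison of Apoe passed the threshold with all livers, and its log2 fold change was 0.05 at day 45 (95% interval −0.57 to 0.68) and 0.38 in the knockout (−0.25 to 1.00). Without knockout C it was 0.72 (limma adjusted p = 0.0208) and in C alone −0.31 (limma adjusted p = 0.613), and with the trend over transcript length removed it was 0.20 (limma adjusted p = 0.454). Macrophages also make Apoe. The summed level of 10 macrophage markers was 254 to 461 FPKM at day 0, 902 to 1018 FPKM at day 45 and 899, 637 and 332 FPKM in knockout A, B and C. Its part in the level of Apoe was not tested.

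Lipc, hepatic lipase, hydrolyses triglyceride and phospholipid of HDL and remnants (chr9:70645934-70782615). It was measured at 262, 141 and 219 FPKM at day 0, 140.2, 156 and 100.5 FPKM at day 21, 142, 107 and 95.04 FPKM at day 45, 105 FPKM at day 100 and 134 FPKM at day 200. In the knockout the 3 livers were close to each other, at 106, 94.7 and 116 FPKM, all below day 0. Lipc fell by 0.82 ± 0.25 on the log2 scale at day 45 (limma adjusted p = 0.0273) and by 0.93 ± 0.25 in the knockout (limma adjusted p = 0.0151), and at days 100 and 200 it stood at −0.75 ± 0.28 (limma adjusted p = 0.0555). Day 0 liver B, at 141 FPKM, lay among the day 45 values. Neither call passed without day 0 liver A (−0.63 and −0.74) or C (−0.76 and −0.86). The day 45 call was also lost without day 45 liver B or C (−0.78 and −0.69) and the knockout call without knockout B (−0.85) and in the fit of only the groups compared (limma adjusted p = 0.0695). Knockout C alone gave −0.78 (limma adjusted p = 0.227).

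Abca1 moves cholesterol and phospholipid onto apolipoprotein A-I, the first step of HDL formation. Its locus is at chr4:53043660-53172767 (mm9) and its longest transcript has 10262 bases. It was measured at 20.5, 32.6 and 27.8 FPKM at day 0, 27.9, 25.8 and 19.5 FPKM at day 21, 21.8, 25.6 and 14.2 FPKM at day 45, 24.4 FPKM at day 100 and 15.6 FPKM at day 200. In the knockout it stood at 5.78, 9.34 and 17.6 FPKM, all below day 0. In the knockout Abca1 fell by 1.33 ± 0.34 on the log2 scale (limma adjusted p = 0.0123). Knockout C alone gave −0.56 (95% interval −1.36 to 0.23, limma adjusted p = 0.384), A and B alone gave −1.72, and with the trend over transcript length removed it was −0.98 (limma adjusted p = 0.00229). The call was lost without day 0 liver B (−1.19) or knockout A (−0.99) and in the fit of only the groups compared (limma adjusted p = 0.0695).

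Abca1 is a known target of miR-33, a microRNA encoded in an intron of the sterol regulator Srebf2. The 3′ UTR of Abca1 is shown because it holds 3 matches to the miR-33 seed within 30 bases, on the minus strand at chr4:53046655-53046684 in mm9, with the first match at base 135 and the last at base 150 of a 3′ UTR of 3156 bases. The first 2 matches overlap, and capitals mark all matching bases.
miR-33-5p: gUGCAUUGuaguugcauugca
Abca1 sites: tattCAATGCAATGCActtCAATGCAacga
The letters CAATGCA stand in the 3′ UTR of 6.45% of the tested genes and of 1 of the 10 members. The miR-33 row stood at 83.5, 166 and 60.6 RPM at day 0, 114, 103 and 46.5 RPM at day 21, and 353, 72.5 and 43.6 RPM at day 45, on the same scale as miR-30a. The day 100 liver gave 116 RPM and the day 200 liver 60.8 RPM. The spread between day 45 mice was wider than that at day 0, and no test was run.

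**Figure D3:**
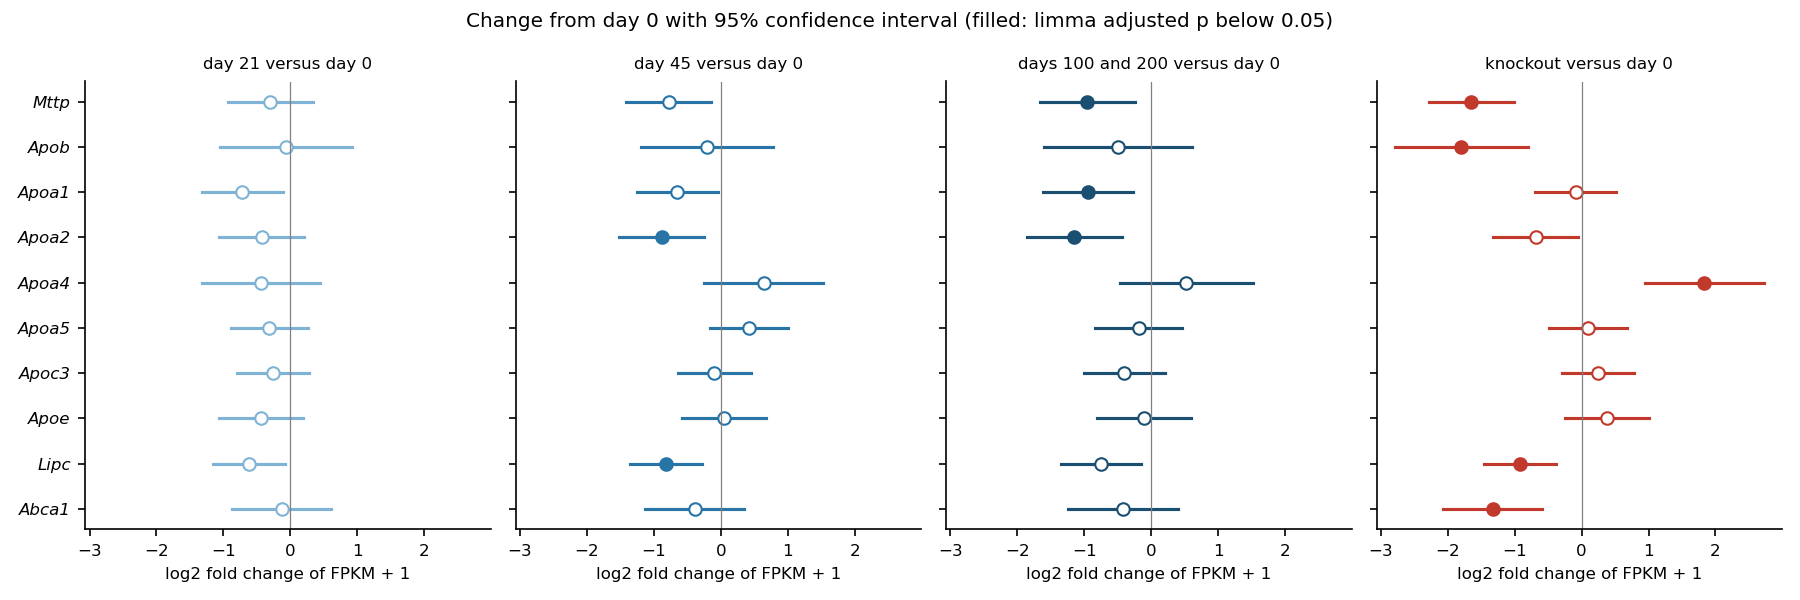
Log2 fold change of FPKM + 1 from day 0 (horizontal axes) for the 10 members (rows) in 4 comparisons (panels), with 95% confidence intervals and filled points where the limma adjusted p is below 0.05. No point is filled at day 21, Apoa2 and Lipc are filled at day 45, Mttp, Apoa1 and Apoa2 at days 100 and 200, and Mttp, Apob, Apoa4, Lipc and Abca1 in the knockout.

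Over all members, 0 of 10 were called at day 21 by limma, with 2 at an unadjusted p below 0.05 (21.7% of all genes), where 7.62% of all tested genes were called (865 genes, and 243 to 643 when 1 mouse was left out, the lowest without day 21 mouse C). All 10 estimates were negative, with a median log2 fold change of −0.37 beside 0.06 over all genes. At day 45, 2 of 10 were called, both lower (Apoa2 and Lipc), where 26.7% of all genes were called and 2.99% were called lower. At days 100 and 200, 3 of 10 were called, all lower (Mttp, Apoa1 and Apoa2), where 31.6% of all genes were called and 3.21% were called lower. In the knockout 5 of 10 were called, where 33.8% of all genes were called, 14.5% lower and 19.3% higher. Of these 5, 4 were lower (Mttp, Apob, Lipc and Abca1) and 1 higher (Apoa4). The counts called in either direction are thus near the background at day 45 and at days 100 and 200, and the calls in those comparisons were all in the less common direction. These comparisons share the day 0 mice.

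The median of all genes was itself above day 0, by log2 0.20 at day 45 and 0.31 at days 100 and 200. With each library centred on its median, all calls at day 45 stood and Mttp was added (−1.01, limma adjusted p = 0.0272), and at days 100 and 200 Lipc was added (−1.09, limma adjusted p = 0.0169). All genes called then split into 1644 higher and 795 lower at day 45, in place of 2688 and 339, so that 7.00% were called lower. At days 100 and 200 they split into 1785 higher and 993 lower, in place of 3227 and 365, and 8.75% were called lower. In bulk liver, fewer hepatocytes and less RNA per hepatocyte cannot be told apart. Markers of other liver cell types moved with the same groups. At day 45, 10 of 10 tested macrophage markers, 7 of 7 lymphocyte, 7 of 8 stellate and fibroblast, 6 of 7 cholangiocyte and 4 of 8 endothelial markers were called higher, and at days 100 and 200 these counts were 6, 7, 8, 7 and 4. In the knockout 5 macrophage, 4 lymphocyte, 4 stellate and fibroblast, 6 cholangiocyte and 1 endothelial markers were called higher than at day 0, and 2 endothelial markers lower. The sum of the cholangiocyte markers other than Spp1, which macrophages also make and which dominated that list, was 9.20 to 11.1 FPKM at day 0, 32.0 to 95.7 FPKM at day 45 and 82.1 to 90.4 FPKM at days 100 and 200. Of 10 hepatocyte markers, Alb is listed at 0 in all 14 libraries, Trf in 11 and Serpina1a in 10, so these 3 were left out here, whereas no member is at 0 in any library. Of the 7 others, limma called 0 at day 45, at days 100 and 200 and in the knockout against day 0, with 0, 1 and 1 at an unadjusted p below 0.05. Their sum was 20428 to 24093 FPKM at day 0, 18392.5 to 22371 FPKM at day 45, 13585 to 20428 FPKM at days 100 and 200 and 19287 to 22396 FPKM in the knockout. Over the 9 tested hepatocyte markers, Trf and Serpina1a included, the median log2 fold change was −0.11 at day 45 and −0.45 at days 100 and 200. In the knockout it was 0.13. The members' medians were −0.30, −0.46 and −0.39, so at days 100 and 200 the 2 medians were close. The part of these cells in the members' values was not tested.

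Direct comparisons between times and models gave few calls. Between day 45 and day 21, 0 of 10 members were called by limma (2 at an unadjusted p below 0.05, beside 16.0% of all genes), where 0.273% of all genes were called, and with the replicate letter as a block 1 gene was called in place of 31 and again no member. Between days 100 and 200 and day 45 again 0 of 10 were called (0 at an unadjusted p below 0.05, beside 7.84% of all genes), where 0.220% were called (25 genes, and 1 to 130 when 1 mouse was left out, the highest without day 45 mouse B). Between the knockout and day 45 only Apob was called among the members, lower in the knockout with a log2 difference of −1.59 ± 0.46 (limma adjusted p = 0.0483), where 9.44% of all genes were called and 8.23% lower. Without knockout C the value was −2.31, and knockout C alone gave −0.14 (95% interval −0.76 to 0.48). The call was lost without any 1 of the day 45 livers (−1.63 to −1.53) and without knockout A (−1.17) or B (−1.29).

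**Figure D4:**
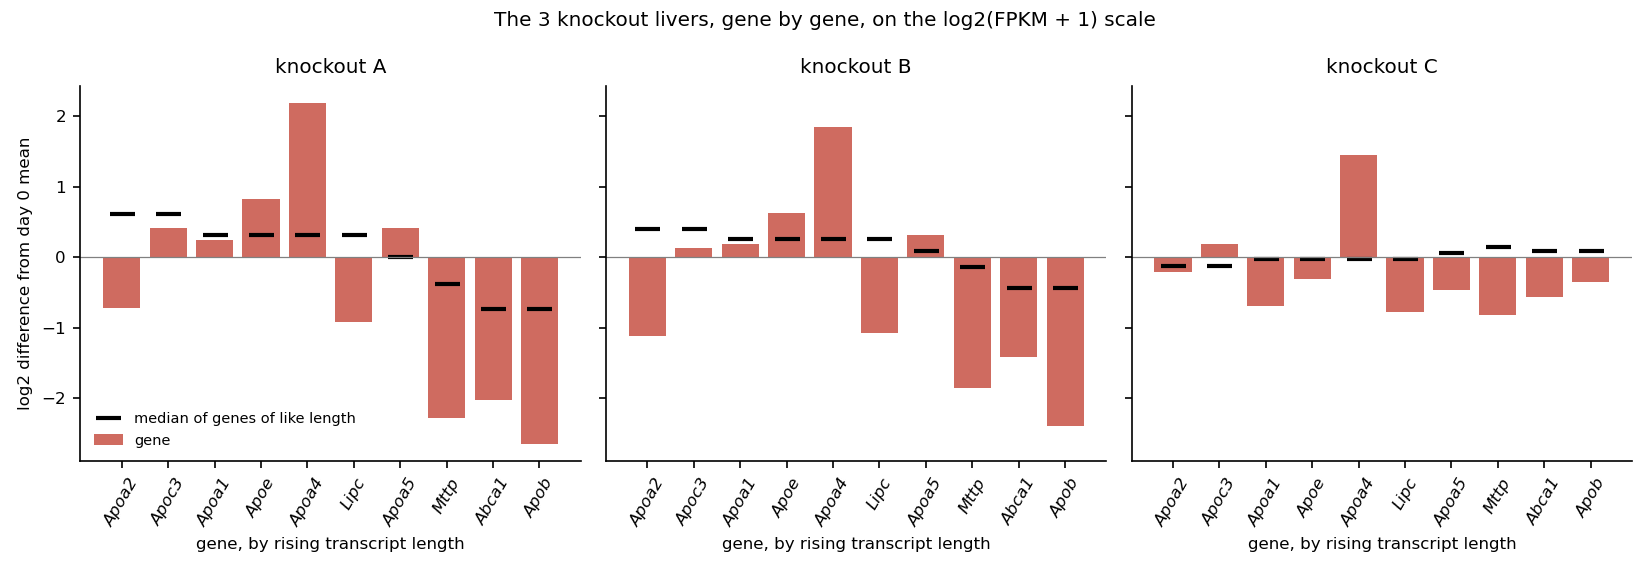
Log2 difference of each member from the day 0 mean (bars, vertical axis, log2 of FPKM + 1) in knockout A, B and C, with members ordered by rising transcript length and a dash at the median of all tested genes in the same length class. Apob stands at −2.65 and −2.39 in A and B beside dashes at −0.74 and −0.44 and at −0.35 in C, while Apoa4 stands at 2.19, 1.85 and 1.45.

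The knockout comparison changed most with its livers. Without knockout C, 7 of 10 members were called against day 0, where 62.4% of all genes were called, and 6 of 10 against day 45, where 52.2% were called, so these shares are near the background. With knockout C alone, 0 of 10 members were called (2 at an unadjusted p below 0.05, beside 22.7% of all genes), where 5.91% of all genes were called. That count rests on 1 liver with a spread borrowed from the other groups, and so does not show that the members did not change in C. Mttp, Lipc, Abca1, Apob and Apoa2 were lower and Apoa4 and Apoc3 were higher than the day 0 mean in each of the 3 knockout livers, and Apoa1, Apoa5 and Apoe lay on opposite sides of it in A and B against C. With the trend over transcript length removed, 6 of 10 members were called in the knockout (Mttp, Apob, Apoa2, Lipc and Abca1 lower, Apoa4 higher), where 41.4% of all genes were called, 20.2% lower and 21.3% higher. Under the same correction 4 of 10 were called at day 45 (Mttp, Apoa1, Lipc and Abca1, all lower), where 24.8% were called and 9.22% lower. At days 100 and 200 the count was 5 of 10 (these 4 and Apoa2, all lower), where 28.2% were called and 11.3% lower. The correction also removed each library's overall level, as median-centring does. The median log2 fold change of all genes went from 0.20 to −0.04 at day 45 and from 0.31 to −0.03 at days 100 and 200. The added calls thus cannot be credited to transcript length alone.

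Of 64 other genes of the pathway in 6 lists, 57 were tested. At day 45, 7 were higher and 3 lower, at days 100 and 200, 7 were higher and 4 lower, in the knockout 6 were higher and 4 lower, and at day 21 none passed. Over all tested genes, 23.7% were called higher and 2.99% lower at day 45, 28.4% and 3.21% at days 100 and 200, and 19.3% and 14.5% in the knockout. Of 7 other apolipoproteins tested, Apoc2, the cofactor of lipoprotein lipase, rose from 410.1 ± 77.0 FPKM at day 0 to 1068 ± 87.8 FPKM at day 45 (log2 fold change 1.39 ± 0.18, limma adjusted p = 0.000466) and to 1140 ± 178 FPKM in the knockout (1.48 ± 0.18, limma adjusted p = 0.000188), and knockout C alone gave 1.37 (limma adjusted p = 0.00755). Apoh and Apof fell at day 45, by 0.85 ± 0.21 and 0.67 ± 0.19 on the log2 scale (limma adjusted p = 0.0115 and 0.0204).

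Of 13 tested genes of assembly and secretion, 3 were higher and 0 lower at day 45, and 1 higher and 1 lower in the knockout. Apobec1, the enzyme that edits Apob messenger RNA, rose from 9.32 ± 1.74 FPKM to 20.9 ± 3.95 FPKM at day 45 (limma adjusted p = 0.00272) and 23.7 ± 4.52 FPKM in the knockout (limma adjusted p = 0.0014), where C alone gave a log2 fold change of 0.95 (limma adjusted p = 0.0629). Sort1, a sorting receptor, rose at day 45 by log2 0.94 ± 0.30 (limma adjusted p = 0.0364) and Sar1a by 0.35 ± 0.12 (limma adjusted p = 0.0431). Sar1b, the GTPase that buds large lipoprotein cargo from the endoplasmic reticulum, fell by 1.32 ± 0.34 on the log2 scale in the knockout (limma adjusted p = 0.0129). It stood at 42.2 and 68.6 FPKM in A and B and at 152 FPKM in C, beside 178 to 212 FPKM at day 0, and C alone gave −0.33 (limma adjusted p = 0.388).

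Of 9 lipases, remodelling proteins and their regulators, 1 was higher and 1 lower at day 45, and 2 were higher and 2 lower in the knockout. Lpl, lipoprotein lipase, rose from 4.97 ± 1.07 FPKM to 19.1 ± 15.5 FPKM at day 45 (limma adjusted p = 0.0219) and to 28.9 ± 5.43 FPKM in the knockout (limma adjusted p = 0.00241), where C alone gave a log2 fold change of 2.42 (limma adjusted p = 0.0515). Its day 45 mice varied widely, at 6.60, 36.5 and 14.2 FPKM in A, B and C beside 3.82 to 5.95 FPKM at day 0, so mouse B weighed most in that mean. In the knockout Lipg, endothelial lipase, fell by 0.95 ± 0.20 (limma adjusted p = 0.00543) and Gpihbp1, which holds lipoprotein lipase on capillaries, rose by 0.61 ± 0.19 (limma adjusted p = 0.0295), both on the log2 scale. Knockout C alone gave −0.84 for Lipg (limma adjusted p = 0.0695) and 0.12 for Gpihbp1 (limma adjusted p = 0.715).

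Of 9 tested receptors and uptake genes, 1 was higher at day 45 and 2 in the knockout. Those of the knockout were Lsr, a remnant receptor (0.90 ± 0.29, limma adjusted p = 0.0315), and Scarb1, the HDL receptor (0.61 ± 0.14, limma adjusted p = 0.0086), with log2 fold changes given. Lsr stood at 253 and 282 FPKM in knockout A and B and at 119 FPKM in C, inside the day 0 range of 91.5 to 125 FPKM, and C alone gave 0.13 (limma adjusted p = 0.825). For Scarb1, C alone gave 0.47 (limma adjusted p = 0.151). Of 6 sterol export genes, Abcg1 rose at day 45 by log2 0.98 ± 0.18 (limma adjusted p = 0.00236), and none passed in the knockout. Of 13 tested transcriptional regulators of these genes, none passed at day 45, and in the knockout 1 fell, the bile acid receptor Nr1h4, by 0.99 ± 0.33 on the log2 scale (limma adjusted p = 0.0357). It stood at 27.2, 38.6 and 88.9 FPKM in knockout A, B and C, with C inside the day 0 range of 86.8 to 99.0 FPKM, and C alone gave −0.04 (limma adjusted p = 0.94).

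Across the 14 livers, the tested genes most like each member differed between members. For Mttp they were Abcd3, Ptprd and Dhdh (Pearson r of log2 FPKM + 1 between 0.961 and 0.964), for Apob Nxt2, Abca6 and A1cf (0.987 to 0.99), and for Abca1 Pikfyve, Hook3 and Insr (0.965 to 0.968). For Apoe they were Mrpl14, Ndufa13 and Tmem160 (0.972 to 0.985), for Apoa2 Gstz1, Leap2 and Upb1 (0.945 to 0.948), and for Lipc Entpd8, Lepr and Serpind1 (0.912 to 0.917). For Apoa4 they were Tmem223, Rpp21 and Golt1a (0.905 to 0.921), for Apoc3 Hpd, Agxt and Enho (0.849 to 0.884), and for Apoa5 Ldha, Acot8 and Mfsd2a (0.779 to 0.807). For Apoa1 they were 1300017J02Rik, Chchd10 and 0610011F06Rik (0.921 to 0.928). The points share group differences and the trend with transcript length, so these values describe likeness in these libraries and were given no test.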

How the data were processed

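The authors aligned paired RNA-seq reads to mm9 with TopHat and deposited FPKM from Cufflinks 2.2.1 with upper-quartile scaling, after leaving out mitochondrial, ribosomal and snoRNA sequences. For small RNA the authors aligned reads with Bowtie 0.12.7 to mouse microRNAs and deposited RPM with 1 added, which was subtracted here. FPKM hold no fragment counts, so no count model was fitted and precision rests on the mice alone. RPM were used without a test.

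Rows of 1 symbol were summed. limma 3.58.1 (R 4.3.3; lmFit, contrasts, eBayes with trend) was run on log2(FPKM + 1) of the 11354 genes that averaged 1 FPKM or more over all livers. The 5 groups (days 100 and 200 together) shared 1 fit, with Benjamini-Hochberg adjustment over all genes in each of 7 comparisons and a threshold of 0.05. The pseudocount of 1 understates changes of low genes. Replicates are separate mice. Between day 21 and day 45, same-lettered mice correlated at 0.272, 0.236 and 0.501 in their deviations from the group means, so the letters may pair the mice there, although no label says so. Transcript lengths and 3′ UTRs are from GENCODE vM1, which uses the same build as the files and gave a length for 97.7% of the tested genes. The length correction removed the lowess trend of each library's log2 ratio over transcript length. As the whole trend was subtracted, this correction also removed each library's overall level. It and the knockout C alone were chosen after seeing the data. Where a group is left with 1 liver, the fit assumes that this liver varies like the other groups. On simulated data for day 45 versus day 0 (200 changed of 11354 genes), the fit called 56% of changes of log2 1 and 91% of log2 2, and 0% of log2 0.5.

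The members and gene lists were chosen with earlier results of these data known. Genes named beside the members are, in each pathway list, up to 4 past the threshold at day 45 or in the knockout, largest change first, and for each member the 3 most correlated tested genes. The marker genes Fabp2, Vil1, Spp1, Alb, Trf and Serpina1a were named after their values were seen. Figures were made with Python 3.11.15 and matplotlib 3.10.9. Alternatives tried were the pseudocount, the filter, the summing of rows, 2 other scalings, the groups fitted, the eBayes options, a replicate block, leaving out each mouse, and the 2 added above. Protein sequences were not used here, and 2 genes that this rule names are counted in their lists but not reported here by name.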

Additional observations from a re-analysis of the deposited data

Results flagged for a closer look

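Apob differed between the germline knockout and day 45 after rAAV-Cre by a direct contrast of both groups, with a log2 difference of −1.59 (limma adjusted p = 0.0483, −2.58 to −0.60 as 95% interval). It was lower than every day 45 liver in 3 of 3 knockout livers, at 98.2, 117 and 488 FPKM against 508 to 588 FPKM. The call rests on knockout A and B: without C the value was −2.31, C alone gave −0.14, and with the trend over transcript length removed it was −0.98 (limma adjusted p = 0.0881). Over its 19 alternatives the limma adjusted p ran from 1.39e-05 to 0.841, and 13 of them did not pass. The part of transcript length in this difference was not tested beyond that correction, which also removed each library's overall level.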

How the results depend on the processing

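The number of members called at day 21, between day 45 and day 21, and between days 100 and 200 and day 45 stayed at 0 under every alternative run. At day 45 it was 2, with 1 without a filter on low values, 3 with median-centred libraries, 3 in the fit of only the groups compared, 4 with length-corrected libraries and 0 to 1 when a mouse was left out. At days 100 and 200 it was 3, with 1 without a filter, 1 in the fit of only the groups compared, 5 with length-corrected libraries and 0 to 2 when a mouse was left out. In the knockout it was 5 against day 0, with 2 in the fit of only the groups compared, 0 with knockout C alone and 3 to 7 when a mouse was left out. Against day 45 it was 1, and 0 with a pseudocount of 10, without a filter, with a mean of at least 5 FPKM, with median-centred or length-corrected libraries, in the fit of only the groups compared and with knockout C alone, and 0 to 6 when a mouse was left out. With the replicate block (replicate letter as a factor) it was also 0, and the block moved no other count of members called by over 1.5 times. Median-centred libraries gave 4 members called at days 100 and 200, where rescaled libraries and a mean of at least 5 FPKM gave 2 each. Length-corrected libraries gave 6 in the knockout against day 0. In every pair of groups other than day 21 with day 45, at least 1 same-lettered pair of mice correlated at or below 0.1 in deviations from the group means (−0.447 to 0.319 over those pairs). These correlations gave no steady sign of pairing there. They cannot exclude it, since the deviations also carry differences between libraries such as the trend with transcript length.

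No called change of a member reversed under any alternative. Among changes from day 0 that were not called, the sign turned for Apoe at day 45 with median-centred (−0.18) and length-corrected libraries (−0.11), for Apoa5 in the knockout with libraries rescaled to a common sum (−0.014) and with knockout C alone (−0.465), for Apoe in the knockout with C alone (−0.315), and for Apoc3 in the knockout with length-corrected libraries (−0.003). When a mouse was left out, the value spanned both signs for Apob (−0.245 to 0.097) and Abca1 (−0.307 to 0.018) at day 21, Apoc3 (−0.329 to 0.126) and Apoe (−0.053 to 0.174) at day 45, Apoa5 (−0.512 to 0.147) and Apoe (−0.323 to 0.101) at days 100 and 200, and Apoa1 (−0.249 to 0.218) and Apoa5 (−0.075 to 0.367) in the knockout. Among the members' differences not taken from day 0, the sign turned in 5 of 180 values between day 45 and day 21, 13 of 160 between days 100 and 200 and day 45, and 7 of 190 between the knockout and day 45, none of them the called change of Apob. The cause was not tested. The count of all genes called between day 45 and day 21 was 31, and 9 with a mean of at least 5 FPKM, 10 without a filter, 14 with median-centred libraries, 4 with length-corrected libraries, 11 with a pseudocount of 10, 58 with one of 0.1, 3 in the fit of only the groups compared, 1 with the replicate block and 0 to 180 when a mouse was left out, the highest without day 45 mouse A. Between days 100 and 200 and day 45 it was 25, and 2 and 99 with pseudocounts of 0.1 and 10, 228 without a filter, 1 with genes averaging 5 FPKM or more, 38 with rescaled libraries, 2 in the fit of only the groups compared and 1 to 130 when a mouse was left out. At day 21 it was 865, and 554 with a pseudocount of 10, 1763 in the fit of only the groups compared, 484 with genes averaging 5 FPKM or more, 470 with the replicate block and 243 to 643 when a mouse was left out. At day 45 it was 3027, and 1477 with a mean of at least 5 FPKM and 1780 without day 45 mouse B. At days 100 and 200 it was 3592, and 5816 without a filter, 1679 with a mean of at least 5 FPKM and 1626 without the day 100 mouse. For the knockout it was 3833 against day 0, and 1112 in the fit of only the groups compared, 2431 with genes averaging 5 FPKM or more, 671 with C alone and 1636 to 7088 when a mouse was left out. Against day 45 it was 1072, and 394 with a mean of at least 5 FPKM, 405 with median-centred, 1792 with rescaled and 475 with length-corrected libraries, 63 in the fit of only the groups compared, 447 with the replicate block, 298 with C alone and 236 to 5922 when a mouse was left out. In data simulated for day 45 against day 0, with 3 mice a group and 200 genes changed, 56% of changes of log2 1 were called, with 11 false calls. Far more genes were called in the data, so this share does not carry over directly. The other comparisons were not simulated.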
